A study of Mus musculus with 2 samples.

Results

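Genes of antigen presentation by MHC class II were followed in tumour endothelial cells (ECs), as 7 of the 17139 genes listed in both single-cell libraries. Membership was set by gene name, with earlier results of these data known, and the set holds Cd74, the 3 chains H2-Aa, H2-Ab1 and H2-Eb1, the peptide-loading chains H2-DMa and H2-DMb1, and the transcriptional activator Ciita. The ECs came from implanted tumours of the Lewis lung carcinoma (LLC) line in adult C57BL/6 mice (C57BL/6 J in the methods), injected into the tumour with phosphate-buffered saline (PBS) or with cGAMP, the cyclic dinucleotide that binds STING. Live CD31+ CD45- cells were sorted 24 h after the injection and profiled by droplet-based scRNA-seq, with 1 library from 1 mouse per treatment. With 1 mouse per treatment there was no spread between animals, no test was made, and every interval below covers counting error only.

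MHC class II molecules present peptides from endosomes to CD4+ T cells. An alpha and a beta chain pair in the endoplasmic reticulum with the invariant chain, encoded by Cd74, which fills the peptide groove until it is degraded by endosomal proteases, and H2-DM then helps to exchange its remnant for a peptide. Professional antigen-presenting cells such as dendritic cells, B cells and activated macrophages carry these molecules constantly, whereas ECs make them mainly after interferon-gamma, which acts through IRF1 on Ciita. CIITA binds no DNA itself and is recruited to the X and Y boxes of class II promoters by the RFX, CREB and NF-Y factors. Because macrophages and dendritic cells are rich in class II transcripts, leucocyte RNA in EC droplets was followed with Lyz2, a lysozyme gene of myeloid cells, and Ptprc, the gene of the CD45 antigen against which the cells were sorted.

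The promoter stretches of H2-Aa and H2-Eb1 are shown because they hold the full Y box through which NF-Y acts on class II genes. Promoters were found for 4 of the 7 genes, H2-Aa, H2-Eb1, H2-DMa and H2-DMb1. The stretches below are from RefSeq on GRCm38.p6, at chr17:34287860-34287919 on the minus strand for H2-Aa and chr17:34305760-34305819 on the plus strand for H2-Eb1, each 60 bases long and written 5′ to 3′ on the gene's strand. Capitals mark the Y box CTGATTGG in both, the cyclic AMP response element TGACGTCA in H2-Aa, and TAGNAAC followed by TGATGATG in H2-Eb1.
H2-Aa promoter: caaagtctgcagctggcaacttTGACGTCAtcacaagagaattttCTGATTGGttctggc
H2-Eb1 promoter: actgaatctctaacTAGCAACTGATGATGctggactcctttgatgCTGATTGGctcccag

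Searched on both strands of windows from 250 bases before to 50 bases after the start, CTGATTGG lay in 2 of these 4 promoters and in 4.10% of all 32851 promoters. Its core ATTGG, which overlaps it, lay in 4 of 4 and in 37.4% of all. The X box written as CCNAGNNAC lay in the H2-Aa and H2-DMb1 promoters and in 17.3% of all, and as CCNNGNNAC, which includes the former, in 3 of 4 and in 47.4%. The CCNAGNNAC match of H2-Aa began at −180 from the start, outside the stretch shown, whereas the Y box of H2-Aa began at −51. The motifs TAGNAAC, TGATGATG and TGACGTCA were chosen after the sequences had been seen. TAGNAAC and TGATGATG lay in 2 of the 4 promoters each, those of H2-Eb1 and H2-DMb1, and in 11.4% and 1.44% of all promoters. TGACGTCA lay in the H2-Aa promoter and in 1.79% of all. These are matches of letters, and no binding was measured.

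Depth was 92081146 unique molecular identifiers (UMIs) in 2517 ECs for the PBS library, with a per-cell median of 29780, and 63366746 UMIs in 1340 ECs for the cGAMP library, with a per-cell median of 41178. Levels are UMIs summed over the cells of a library, in counts per 1000000 of its UMIs (CPM), and 3 UMIs, taken as the floor, corresponded to 0.0326 CPM in the PBS and 0.0473 CPM in the cGAMP library. Pecam1, which encodes CD31, had a UMI in 2509 cells of the PBS and 1335 of the cGAMP library, which the sort on CD31 and the removal of clusters without Pecam1 had fixed. Of the endothelial genes not used for that choice, Cdh5, encoding VE-cadherin, measured 1146 and 1008 CPM. All 7 endothelial identity genes, Pecam1 among them, summed to 4247 and 5264 CPM, with Egfl7 the most abundant. Only 2 of the 7 were higher in the cGAMP library. The libraries shared 1 cell barcode. Of the 9509 genes that reached 5 CPM in either library, 1.82% were at least 2-fold higher in cGAMP-treated ECs and 1.70% at least 2-fold lower (1.92% and 1.53% with median-of-ratios scaling, which adds 0.03 to every log2 ratio). The median log2 ratio (cGAMP over PBS) of these genes lay at −0.08.

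Class II transcripts were scarce in PBS-treated ECs and higher after cGAMP for 6 of the 7 genes. The 7 genes together had 1479 UMIs, or 16.1 CPM (exact Poisson 95% interval 15.3 to 16.9), in the PBS library and 3617 UMIs, or 57.1 CPM (55.2 to 59.0), in the cGAMP library. This was 3.55-fold, a log2 ratio of 1.83 with an exact interval of 1.74 to 1.92. The 6 genes other than Ciita were each at least 2-fold higher with intervals of the log2 ratio above 0, and the median log2 ratio over all 7 was 1.38. Of the 7, 2 reached 5 CPM in a library and 6 reached 1 CPM. At the limit of 1 CPM, which 11761 genes passed, 2.61% of genes were at least 2-fold higher and 2.73% at least 2-fold lower.

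**Figure D1:**
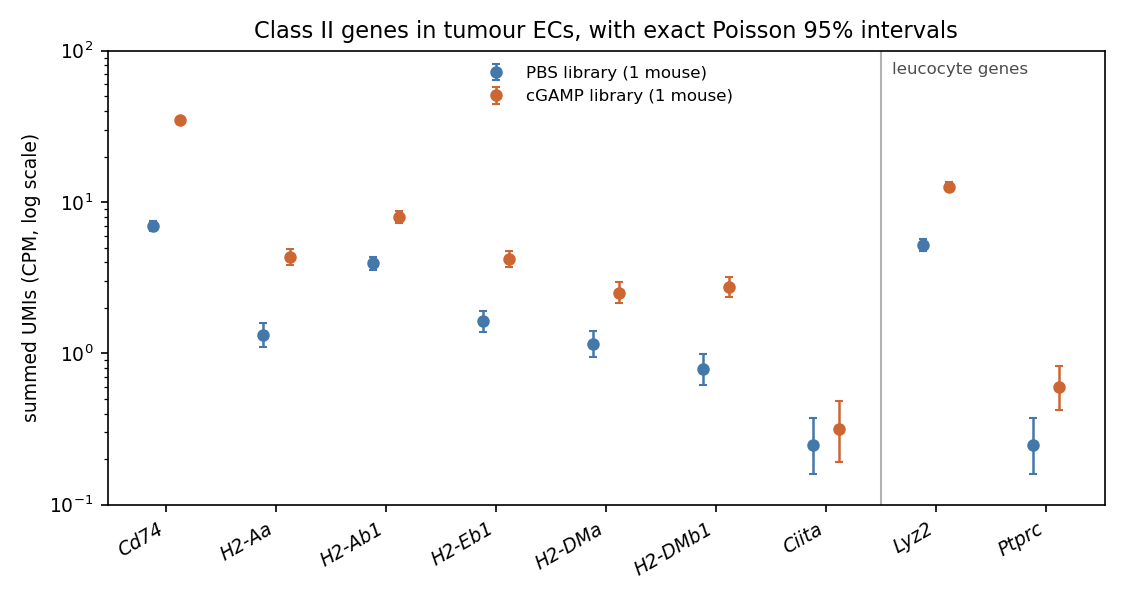
Summed UMIs of the 7 class II genes and of the leucocyte genes Lyz2 and Ptprc in each library, in CPM on a log axis; points are 1 library (1 mouse) each and bars are exact Poisson 95% intervals. The cGAMP point lies above the PBS point with separate intervals for Cd74 and the 5 chains, while the intervals of Ciita overlap.

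Cd74, on chromosome 18, was the most abundant of the 7 and had the largest ratio. It measured 6.97 CPM (6.44 to 7.53) in PBS-treated ECs, from 642 UMIs in 87 cells. In cGAMP-treated ECs it measured 35.0 CPM (33.5 to 36.4), from 2215 UMIs in 329 cells. The ratio was 5.01-fold, with a log2 ratio of 2.33 (2.20 to 2.45), and of the 7 genes Cd74 alone reached 20 CPM, a limit at which 1.70% of genes were at least 2-fold higher and 1.29% at least 2-fold lower.

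The classical chains form the I-A and I-E molecules, H2-Aa and H2-Ab1 being the alpha and beta chain of I-A and H2-Eb1 the beta chain of I-E, and they lie within 1 region of chromosome 17 (GENCODE vM21, GRCm38). H2-Aa (chr17:34282744-34287823) measured 1.32 CPM in the PBS and 4.34 CPM in the cGAMP library, a log2 ratio of 1.71 (1.40 to 2.03). H2-Eb1 (chr17:34305867-34316674) measured 1.63 and 4.23 CPM, a log2 ratio of 1.38 (1.08 to 1.67). H2-Ab1 (chr17:34257689-34269419) was the most abundant chain in both libraries, at 3.93 and 7.95 CPM, and had the smallest ratio of the 3, with a log2 ratio of 1.02 (0.82 to 1.22). H2-Ab1 thus sat at the 2-fold limit, and its log2 ratio was 0.93 when both libraries were given the same proportions of endothelial groups.

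H2-DMa and H2-DMb1 encode the alpha and beta chain of H2-DM, the exchange factor of the endosome. H2-DMa (chr17:34119541-34139101) measured 1.16 CPM in the PBS library and 2.53 CPM in the cGAMP library, a log2 ratio of 1.12 (0.76 to 1.49), which was 0.88 with equal proportions of endothelial groups and 0.96 in thinned cells. H2-DMb1 (chr17:34153072-34160230) measured 0.793 and 2.76 CPM, a log2 ratio of 1.80 (1.40 to 2.21). Its near-identical neighbour H2-DMb2 was not among the genes listed in the libraries, so the share of reads given to H2-DMb1 is uncertain.

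Ciita (chr16:10480059-10528418), the activator of the whole set, was at the edge of detection in both libraries. It had 23 UMIs in 15 PBS-treated ECs, or 0.250 CPM, and 20 UMIs in 15 cGAMP-treated ECs, or 0.316 CPM. The log2 ratio was 0.34 with an interval of −0.60 to 1.27, which includes both no difference and a 2-fold higher level, so that no difference was detectable at this depth.

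To compare shares of cells at equal depth, every cell was thinned to 5000 UMIs, and 70 cells of the PBS and 13 of the cGAMP library were too shallow for this. Any of the 7 genes had a UMI in 3.47% of the thinned PBS-treated ECs (exact Clopper-Pearson 95% interval 2.78 to 4.28) and in 14.5% (12.6 to 16.5) with cGAMP. The unthinned shares were 13.1% and 37.7%. Cd74 alone was found in 1.02% and 10.0% (8.46 to 11.8) of thinned cells, and a classical chain in 2.21% and 5.73%. Lyz2, which ECs should lack, was found in 2.04% (1.52 to 2.69) and 6.63% (5.35 to 8.11) of the same cells. The Cd74 share was thus below that of Lyz2 in the PBS library and above it in the cGAMP library. The share with a classical chain was not separated from the Lyz2 share in either library, the intervals overlapping. Ciita was found in 0.163% and 0.151% of thinned cells, and Ptprc in 0.0817% and 0.377%.

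The UMIs were not spread evenly over the cells. In the PBS library 329 cells held any class II UMI, 219 of them exactly 1, and 10 cells held 50% of all class II UMIs. In the cGAMP library 505 cells held any, 189 of them exactly 1, and 45 cells held 50%. At least 10 class II UMIs were present in 21 cells of the PBS library (0.834%) and 100 cells of the cGAMP library (7.46%), and these cells carried 65.4% and 71.3% of all class II UMIs. The 5 highest cells carried 37.2% of the class II UMIs of the PBS library and 13.8% of those of the cGAMP library. Lyz2 was uneven too, with 22.3% and 11.4% of its UMIs in the 5 cells highest in Lyz2. A single cell held up to 81 Lyz2 UMIs with PBS and 55 with cGAMP.

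**Figure D2:**
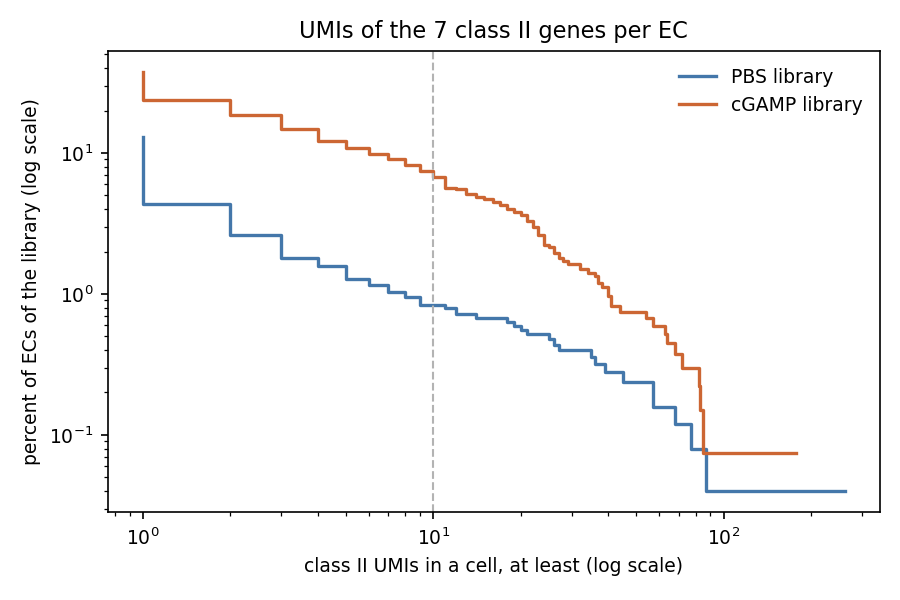
Percent of ECs of each library (y axis, log scale) with at least the given number of UMIs of the 7 class II genes (x axis, log scale); the dashed line marks 10 UMIs. At 10 UMIs the cGAMP curve lies above the PBS curve, at 7.46% against 0.834% of cells, and the curves end in single cells with 177 (cGAMP) and 261 (PBS) UMIs.

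The genes of the set occurred together in the same cells. Among thinned PBS-treated ECs, a classical chain was found in 52.0% of the 25 cells with a Cd74 UMI (31.3 to 72.2) and in 1.69% of the 2422 without. Among thinned cGAMP-treated ECs the shares were 24.8% of 133 cells (17.7 to 33.0) and 3.60% of 1194. H2-DMa or H2-DMb1 was found in 15.8% of the cGAMP-treated ECs with a Cd74 UMI and in 1.42% of those without. Lyz2 did not mark the same cells as clearly. In cGAMP-treated ECs Cd74 was found in 14.8% of cells with a Lyz2 UMI (8.11 to 23.9) and in 9.69% of cells without (8.10 to 11.5), with overlapping intervals, and in PBS-treated ECs in 0 of 50 cells with a Lyz2 UMI, which allows a share of up to 7.11%, and in 1.04% of those without.

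Cells with at least 10 class II UMIs carried endothelial transcripts. A Pecam1 UMI was present in 21 of the 21 such cells with PBS and in 100 of the 100 with cGAMP. The choice of cells by CD31 and Pecam1 had largely fixed these counts. The median Pecam1 level was 9.37 UMIs per 10000 in these PBS-treated cells against 9.33 in the rest, and 8.71 against 7.97 in cGAMP-treated cells. Cdh5, not used for that choice, had lower medians in the high cells, at 9.86 against 10.99 with PBS and 9.35 against 9.80 with cGAMP. Ptprc had a UMI in 1 of the 21 and 2 of the 100. Lyz2 had a UMI in 14.3% of the 21, against 13.5% of the other PBS-treated ECs, and in 38.0% of the 100, against 38.4% of the other cGAMP-treated ECs. Cd52, a surface glycoprotein gene of leucocytes, had a UMI in 1 of the 21, against 40 of the 2496 others with PBS, and in 19.0% of the 100, against 9.35% of the others with cGAMP. No UMI of 26 leucocyte markers was found in 76.2% of the 21, against 67.0% of the others, and in 18.0% of the 100, against 25.3% of the others. The high cells were deeper, at medians of 41069 against 29729.5 UMIs with PBS and 50490 against 40462 UMIs with cGAMP, and the part of depth in these shares was not tested.

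The highest PBS-treated cell stood apart. It held 261 class II UMIs, 17.6% of the library's total, with 121 of Cd74, 44 of H2-Aa, 33 of H2-Ab1 and 56 of H2-Eb1. It carried both 77 Pecam1 and 86 Cdh5 UMIs and 45 UMIs of leucocyte markers, among them 15 of the library's 20 UMIs of Ccr7, the chemokine receptor of migratory dendritic cells, 9 of Cd52 and 1 of Ptprc, in a total of 77177 UMIs. The next 4 PBS-treated cells held 57 to 87 class II UMIs and 0 of those leucocyte markers. Without the 1 cell the log2 ratio of the 7 genes was 2.11 (2.01 to 2.20) in place of 1.83.

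Leucocyte RNA moved with the treatment as well. Lyz2 measured 5.21 CPM with PBS and 12.6 CPM with cGAMP, a log2 ratio of 1.28 (1.11 to 1.44), and Ptprc 0.250 and 0.600 CPM, a log2 ratio of 1.26 (0.48 to 2.08). All 12 macrophage or monocyte markers were higher after cGAMP, 10 of them at least 2-fold, and summed to 46.7 and 108 CPM, led by Cd14, which ECs also express. The 4 neutrophil markers summed to 0.652 and 17.0 CPM, led by S100a9 and with Retnlg at 0 in the PBS library. Of the 7 pan-leucocyte markers 4 were at least 2-fold higher, Ptprc, Cd52, Cd53 and Spi1. Laptm5 was lower, at 3.17 and 2.76 CPM, with a log2 interval (−0.48 to 0.08) that includes 0. Coro1a, at 9.64 and 6.72 CPM, and Lcp1 were lower too. The sum of the 7, 102 and 74.9 CPM, was led by Lcp1, which ECs express, at 87.6 and 60.1 CPM. At 1 CPM, a limit not applied to the marker lists, 2.61% of all genes were at least 2-fold higher. The 6 dendritic markers listed summed to 21.7 and 30.2 CPM, led by Batf3, the 3 B cell markers listed to 1.11 and 1.26 CPM, led by Cd79a and with Ighm at 0 in the PBS library, and the 3 T or NK markers listed to 0.728 and 0.521 CPM, led by Cd4 and with Cd3d at 0 in the cGAMP library. The class II levels were therefore also measured in cells without such UMIs. Leaving out every cell with a UMI of any of 26 leucocyte markers removed 828 cells of the PBS and 1008 cells of the cGAMP library, and the class II genes then measured 16.7 and 54.9 CPM, a log2 ratio of 1.72 (1.56 to 1.87). Leaving out only cells with a Ptprc or Lyz2 UMI gave 14.0 and 62.3 CPM, a log2 ratio of 2.15 (2.04 to 2.26).

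The ECs fell into 7 groups, clustered without the class II genes. Stalk-like, proliferative, arterial and tip-like ECs were named by their markers, and 3 groups stayed unnamed and are called by their leading genes, Igfbp5 and Ctsh, Ung and Hells (genes of S phase), and Ramp3 and Igfbp3. The Igfbp5 and Ctsh group had 15 of 15 stalk-like markers raised but 0 among its 10 leading genes. In the order just given they held 354, 486, 349, 495, 47, 186 and 600 PBS-treated cells and 333, 180, 173, 192, 51, 142 and 269 cGAMP-treated cells. The tip-like group joined a cluster led by Gal and Chga, with 389 PBS-treated and 130 cGAMP-treated cells, and another led by Pgf and Bnip3, with 106 and 62. Stalk-like ECs had the highest Cd74 level in both libraries, at 19.4 CPM (16.5 to 22.6) with PBS and 68.5 CPM (64.3 to 72.9) with cGAMP, a log2 ratio of 1.82 (1.58 to 2.07). With PBS these 165 UMIs came from 14 cells, and 2 cells held 68 and 38 of them. Stalk-like ECs held 19.8% of the class II UMIs of the PBS library and 46.2% of those of the cGAMP library, while making up 14.1% and 24.9% of the cells. Of the 100 cGAMP-treated ECs with at least 10 class II UMIs, 49 were stalk-like.

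In cGAMP-treated ECs the order of Cd74 levels after stalk-like ECs was the Igfbp5 and Ctsh group at 52.9 CPM, proliferative ECs at 41.6 CPM, the Ung and Hells group at 33.3 CPM, arterial ECs at 16.7 CPM, the Ramp3 and Igfbp3 group at 15.4 CPM and tip-like ECs at 11.8 CPM. The intervals of the 3 highest of the 7 groups overlapped from neighbour to neighbour, as did those of the 3 lowest, whereas proliferative ECs lay apart from the Ung and Hells group and that group from arterial ECs. In PBS-treated ECs the order was the stalk-like, the Igfbp5 and Ctsh group at 16.2 CPM, tip-like at 9.14, arterial at 6.43, proliferative at 5.20, the Ramp3 and Igfbp3 group at 3.38 and the Ung and Hells group at 3.32 CPM. Of these neighbours only proliferative ECs and the Ramp3 and Igfbp3 group had intervals that did not overlap. In both libraries the intervals take each UMI as independent and do not cover the uneven spread of UMIs over cells. The PBS level of the Igfbp5 and Ctsh group came from 17 Cd74 UMIs in 1 cell.

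**Figure D3:**
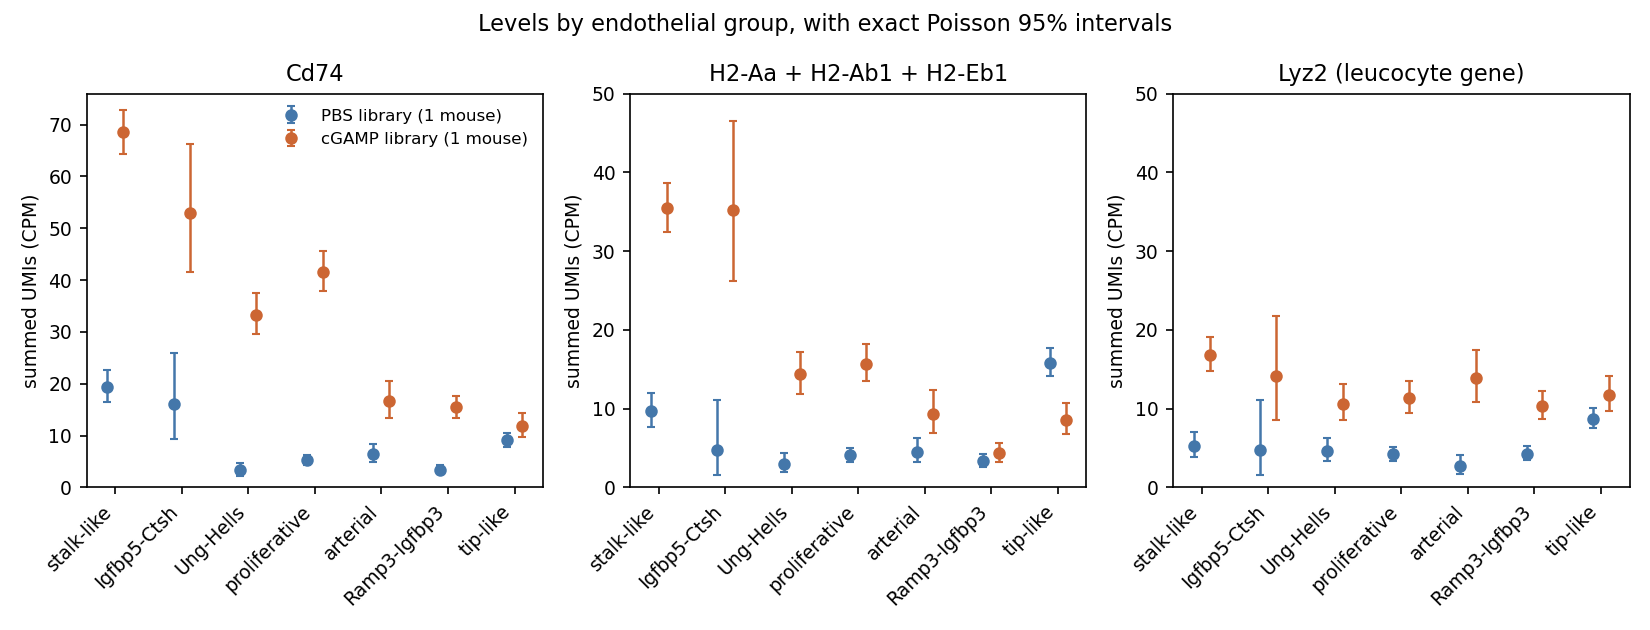
Summed UMIs in CPM (linear axes, the Cd74 axis reaching higher) of Cd74, of the 3 classical chains together and of the leucocyte gene Lyz2 in the 7 endothelial groups; points are 1 library each with exact Poisson 95% intervals. In the cGAMP library Cd74 runs from 11.8 to 68.5 CPM and the chains from 4.33 to 35.4 CPM over the groups, against 10.3 to 16.8 CPM for Lyz2.

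The spread over groups was wider for class II than for Lyz2, the C1q genes or Fcer1g in the cGAMP library. The highest group was 5.78-fold the lowest for Cd74 and 8.18-fold for the 3 chains together. It was 1.63-fold for Lyz2, 1.35-fold for the complement genes C1qa, C1qb and C1qc of macrophages, and 1.70-fold for Fcer1g. Fcer1g had been dropped from the leucocyte markers as a gene that ECs also express. Cd52 varied more than these, from 1.41 CPM (2 UMIs) in the Igfbp5 and Ctsh group to 5.19 CPM in the Ung and Hells group. In the PBS library the contrast was smaller, with 5.83-fold for Cd74 and 5.27-fold for the chains against 4.84-fold for the C1q genes, 3.19-fold for Lyz2 and 2.34-fold for Fcer1g. Per Lyz2 UMI of the cGAMP library, Cd74 had 4.07 UMIs in stalk-like ECs and 3.75 in the Igfbp5 and Ctsh group. It had 3.68 in proliferative ECs and 3.14 in the Ung and Hells group. The Ramp3 and Igfbp3 group had 1.49, arterial ECs 1.2 and tip-like ECs 1.01. With PBS the order differed, from 3.67 in stalk-like and 2.35 in arterial ECs to 1.24 in proliferative ECs and 0.72 in the Ung and Hells group. In thinned cGAMP-treated ECs a Cd74 UMI was found in 18.1% of stalk-like ECs (14.1 to 22.7) and 12.4% of proliferative ECs (8.0 to 18.2), against a Lyz2 UMI in 7.85% and 5.08%. In arterial ECs, the Ramp3 and Igfbp3 group and tip-like ECs the Cd74 shares of 5.88%, 4.53% and 5.24% were not above the Lyz2 shares of 8.24%, 6.04% and 5.24%. By level, Cd74 was still above Lyz2 in the Ramp3 and Igfbp3 group, at 15.4 CPM (13.4 to 17.7) against 10.3 CPM (8.68 to 12.2). Without thinning, the Cd74 share was 38.1% in stalk-like and 15.6% in tip-like ECs of the cGAMP library.

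Counted per group, 6 of the 7 class II genes reached 1 CPM in every group but that of Ramp3 and Igfbp3, where 4 did. In stalk-like ECs 5 of these 6 were at least 2-fold higher after cGAMP, against 3.74% of all genes higher and 7.43% lower. The counts were 6 of 6 in proliferative ECs (2.74% of all genes higher, 3.27% lower), 5 of 6 in the Ung and Hells group (3.50% and 4.88%) and 5 of 6 in the Igfbp5 and Ctsh group (9.69% and 11.7%). In the Igfbp5 and Ctsh group H2-Aa and H2-Eb1 had 2 PBS UMIs each and H2-Ab1 and H2-DMa 1 each, below the floor of 3. The log2 intervals of H2-Eb1 (−0.76 to 4.84) and H2-DMa (−0.11 to 8.19) there include 0. In the Ung and Hells group H2-Eb1 and H2-DMb1 had 2 PBS UMIs each. They were 2 of 6 in arterial ECs (4.22% and 7.21%), 1 of 4 in the Ramp3 and Igfbp3 group (2.57% and 4.28%) and 1 of 6 in tip-like ECs (3.06% and 3.36%). The largest log2 ratios of Cd74 were in the cycling groups, at 3.33 (2.79 to 3.91) in the Ung and Hells group and 3.0 (2.71 to 3.30) in proliferative ECs. In both, the PBS levels were below that of stalk-like ECs. In arterial ECs the log2 ratio of the 7 genes was 1.11 (0.75 to 1.47), and −0.14 (−0.84 to 0.50) without the cells that held a leucocyte marker UMI.

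Tip-like ECs differed in direction. H2-Aa measured 2.66 CPM with PBS and 0.952 CPM with cGAMP, a log2 ratio of −1.48 (−2.69 to −0.45), and H2-Eb1 3.57 and 1.06 CPM, a log2 ratio of −1.75 (−2.87 to −0.79), the only class II genes with at least 1 CPM that were at least 2-fold lower in any group. H2-Ab1 measured 9.59 and 6.56 CPM, a log2 ratio of −0.55 (−0.99 to −0.13), and Cd74 9.14 and 11.8 CPM, a log2 ratio of 0.37 (0.02 to 0.72). The high PBS-treated cell with the Ccr7 UMIs was in this group. Without it the log2 ratios were 1.07 (−0.44 to 2.58) for H2-Aa, 0.48 (−0.83 to 1.73) for H2-Eb1, −0.28 (−0.73 to 0.15) for H2-Ab1 and 1.95 (1.48 to 2.42) for Cd74. H2-Ab1 in PBS-treated tip-like ECs was spread over 68 cells, 13.7% of the group, whereas Cd74 had a UMI in 15 cells. After thinning the shares were 3.26% for H2-Ab1 and 0.407% for Cd74, and that of Lyz2 was 3.26% too. In the 309 PBS-treated and 45 cGAMP-treated tip-like cells with no leucocyte marker UMI, H2-Ab1 measured 9.40 CPM, from 97 UMIs, and 2.21 CPM, from 3 UMIs, a log2 ratio of −2.09 (−4.39 to −0.50).

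Of 25 other genes of the class II pathway with at least 1 CPM, without class I, 2 were at least 2-fold higher after cGAMP and 0 were lower by as much, against 2.61% and 2.73% of all genes at that limit, and their median log2 ratio was 0.05, against −0.09 over all genes. The 7 promoter factors had a median log2 ratio of −0.23, and all but Nfyc were lower in the cGAMP library under both scalings. Nfyc, an NF-Y subunit, measured 18.1 and 17.8 CPM, a log2 ratio of −0.02 (−0.13 to 0.09) that median-of-ratios scaling turned above 0, and Rfx5, the DNA-binding RFX subunit, 5.0 and 3.35 CPM, a log2 ratio of −0.58 (−0.82 to −0.34).

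Of the 8 genes of interferon-gamma signalling, 1 was at least 2-fold higher, against 2.61% of all genes. It was Socs1, the feedback inhibitor, at 6.64 CPM with PBS and 17.8 CPM with cGAMP, a log2 ratio of 1.42 (1.28 to 1.56). Irf1 measured 56.8 and 94.5 CPM, a log2 ratio of 0.73. Irf2, the lowest in ratio, measured 76.1 and 63.6 CPM, a log2 ratio of −0.26. Both receptor chains differed by less than 0.1 on the log2 scale, with Ifngr1 at −0.06 and Ifngr2 at 0.07.

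Among 6 endosomal proteases, Ctss, encoding cathepsin S, the protease that trims the invariant chain in professional antigen-presenting cells, had the largest log2 ratio, 2.79 (2.44 to 3.16), at 0.869 CPM with PBS and 6.03 CPM with cGAMP. Ctsl, encoding the related cathepsin L, was far more abundant and had the lowest, at 988 and 885 CPM, a log2 ratio of −0.16. In the cGAMP library Ctss ran from 4.83 CPM in the Ung and Hells group to 11.99 CPM in the Igfbp5 and Ctsh group and was 5.38 CPM in stalk-like ECs, so that its order over groups was not that of Cd74. Over all ECs Lyz2 was above Ctss, at 5.21 CPM with PBS and 12.6 CPM with cGAMP. The part of leucocyte RNA in the Ctss level was not tested. March8, a ubiquitin ligase that removes class II from the surface, measured 15.9 and 12.47 CPM, a log2 ratio of −0.35.

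Of 3 costimulation and adhesion genes past 1 CPM, 0 were at least 2-fold higher. Cd40 measured 3.41 and 6.19 CPM, a log2 ratio of 0.86 (0.64 to 1.08), and Icam2 261 and 267 CPM, a log2 ratio of 0.03. The costimulatory ligands Cd80 and Cd86, with which professional antigen-presenting cells activate naive T cells, had 5 and 0 UMIs in the PBS library and 7 and 7 UMIs in the cGAMP library. H2-Oa and H2-Ob, which encode the H2-O inhibitor of H2-DM, had 0 and 11 UMIs with PBS and 5 and 10 UMIs with cGAMP. MHC class I, which presents cytosolic peptides, was at another scale. Of 7 class I pathway genes 6 were at least 2-fold higher, against 2.61% of all genes, and H2-K1, the highest in ratio, measured 1139 CPM with PBS and 3435 CPM with cGAMP, a log2 ratio of 1.59, while its activator Nlrc5, the lowest, had a log2 ratio of 0.80.

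**Figure D4:**
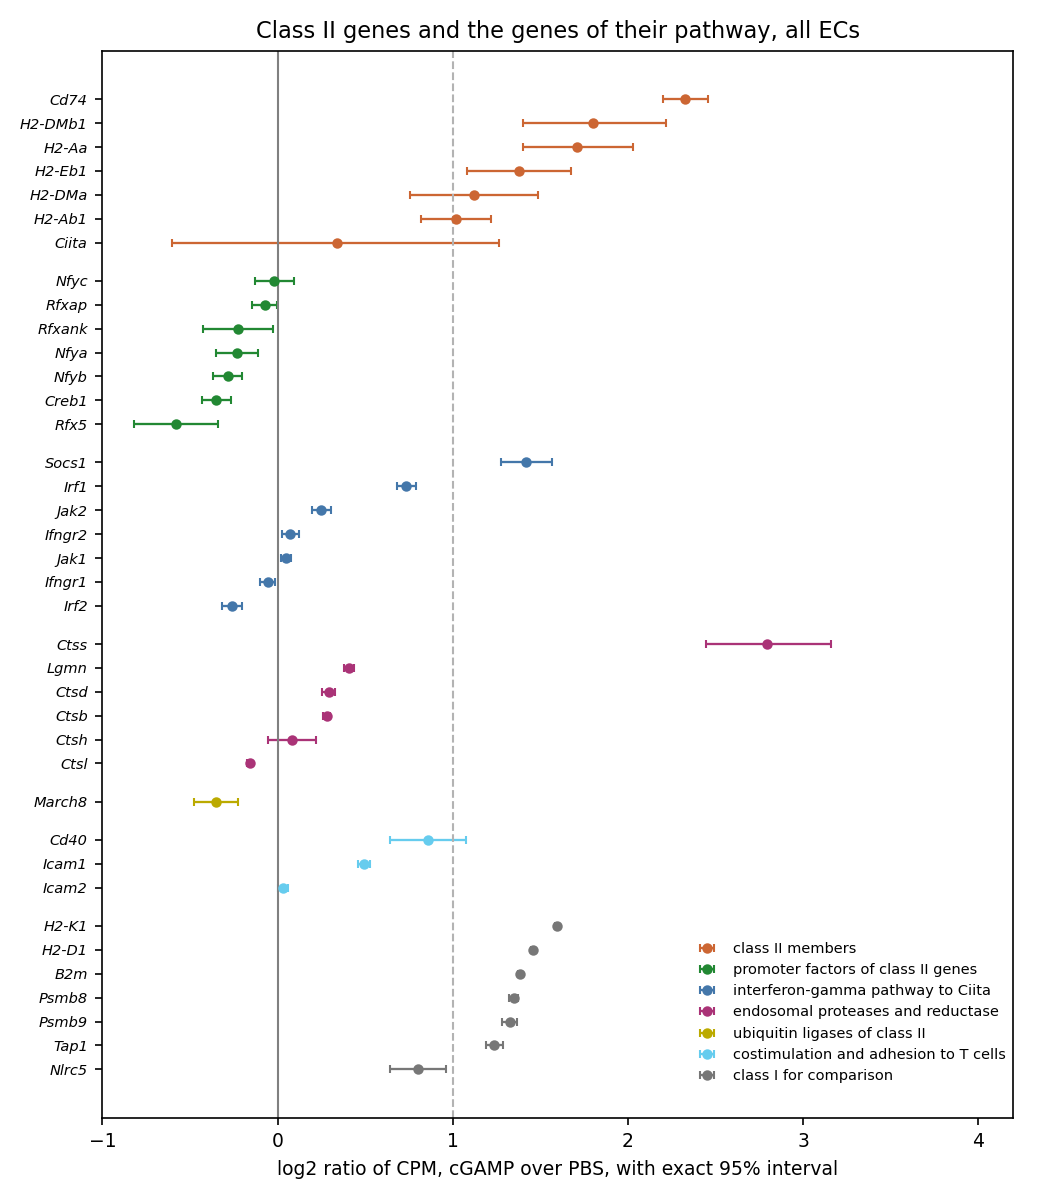
Log2 ratio of CPM, cGAMP over PBS, in all ECs for the 7 class II genes and for the pathway and class I genes with at least 1 CPM, all but 1 of them drawn, grouped by role; bars are exact 95% intervals for counting error, the solid line is no difference and the dashed line 2-fold. The class II chains and most class I genes lie at or right of the dashed line, and the promoter factors lie left of the solid line except Nfyc, which lies on it and moves right of it with median-of-ratios scaling.

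Over the 14 profiles of 7 groups in 2 libraries, the genes whose log2(CPM + 5) was most like that of Cd74 and the 3 classical chains together, out of 5961 with at least 20 CPM and outside all lists, were Csf3, which encodes the granulocyte growth factor G-CSF (Pearson r 0.88), Iigp1, an immunity-related GTPase (0.87), Gsdmd, the pore-forming gasdermin D (0.86), Eva1a (0.85) and Erap1, the aminopeptidase that trims peptides for class I (0.85). By the same measure r was 0.81 for Lyz2, 0.73 for Ctss, 0.60 for Ptprc and 0.54 for Ciita. The profiles share their libraries, and 7 of the 14 come from each, so these values describe the profiles and carry no p-value.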

How the data were processed

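ECs of 1 PBS-treated and 1 cGAMP-treated LLC tumour were compared. Reads were mapped by the authors to mm10 (Cell Ranger 3.0.0 and Seurat 3.1.1 in the submitters' processing notes), low-quality cells and non-endothelial clusters were taken out, and the deposited values are natural log values, the ln of 1 plus UMIs per 10000 of each cell. The methods give sampling 24 h after injection and a supplementary legend 6 h, and the droplet kit is version 3 in the methods and version 2 in the labels.

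UMI counts were rebuilt from the exponential of each value, taking the lowest value of a cell as 1 UMI, and 100% of the nonzero values lay within 0.01 of an integer. Summed UMIs were scaled to CPM with exact Poisson 95% intervals, log2 ratios have exact conditional binomial intervals, and shares have exact Clopper-Pearson intervals after thinning to 5000 UMIs. The depth was 92081146 (PBS) and 63366746 (cGAMP) UMIs. A gene was counted as higher or lower from a 2-fold ratio.

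Clustering used Seurat 5.3.0 (R 4.3.3) with 2500 variable genes, integration anchors, 30 principal components and Louvain resolution 0.5. Class II genes and genes that differed 2-fold between libraries were left out, leaving 1793. A cluster was named for a class with at least 3 raised markers and at least 1 marker among its 10 leading genes, and no fewer there than any other class. These thresholds were set after the clusters were seen, and the rebuilt groups may differ from the published ones. No doublets were removed and no doublet caller was run. The marker lists summed, in the PBS and cGAMP libraries, to 1825 and 2838 CPM for stalk-like (led by Lrg1), 2857 and 2310 CPM for tip-like (Angpt2), 1358 and 821 CPM for proliferative (Stmn1), 895 and 677 CPM for arterial (Nts), 60.5 and 82.7 CPM for lymphatic (Lyve1), 17.6 and 11.0 CPM for fibroblast or mural (Acta2) and 2.09 and 0.395 CPM for epithelial tumour markers (Krt18). For leaving cells out, leucocyte markers that ECs also express were dropped after their values were seen, and 26 were kept.

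The named genes were the 7 class II genes, a list of their pathway by role with the highest and lowest ratio of each role, Lyz2, Ptprc and the most abundant gene of each marker list, and the 5 genes most like the class II genes. Irf1, Ifngr1, Ifngr2, Cd80, Cd86, H2-Oa, H2-Ob, Ccr7, Cd52, Cd53, Spi1, Fcer1g, Cdh5, the C1q genes, marker genes at 0 and the leading genes of unnamed groups were named after their values were seen. The counts cover 1 further gene of the pathway list that is not reported here by itself. Members and lists were chosen with earlier results of these data known. Alternatives were other scalings, weights, filters and clusterings and the removal of cells. The scripts ran in Python 3.11.15 with scipy 1.17.1 and matplotlib 3.10.9.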

Additional observations from a re-analysis of the deposited data

Results flagged for a closer look

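Class II chains moved in opposite directions in different endothelial groups between the PBS and the cGAMP library. In tip-like ECs the log2 ratio of cGAMP over PBS was −1.48 for H2-Aa, −0.55 for H2-Ab1 and −1.75 for H2-Eb1, with counting intervals below 0, while each of these genes had a log2 ratio with an interval above 0 in 4 other groups. With 1 library per treatment the difference between groups was not tested. Without the 1 PBS-treated cell that held 261 class II UMIs and 15 Ccr7 UMIs, the tip-like values were 1.07, −0.28 and 0.48 with intervals that include 0. For H2-Ab1 the log2 ratio was −2.09 (−4.39 to −0.50) in cells without a leucocyte marker UMI, and −0.75 to −0.47 with intervals below 0 at resolution 0.3, with all variable genes, without integration and by marker ranks. Under those 4 regroupings H2-Aa was −1.21 to −0.96 and H2-Eb1 −1.99 to −0.91, with intervals below 0 except for H2-Aa without integration. None of the 4 left out the cell with 261 class II UMIs, so the values under them were not measured without it. In the main grouping that cell held 44 of the 53 H2-Aa UMIs and 56 of the 71 H2-Eb1 UMIs of PBS-treated tip-like ECs.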

How the results depend on the processing

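The log2 ratio of the 7 class II genes over all ECs, 1.83, was between 1.66 and 2.29 under the 8 alternatives run. It was 1.72 without cells holding a leucocyte marker UMI, 2.15 without cells holding a Ptprc or Lyz2 UMI, 2.29 without the 5 highest cells of each library, 2.11 without the highest PBS-treated cell, 1.66 with group proportions held equal and 2.05 in cells thinned to 5000 UMIs. The count of genes at least 2-fold higher was 6, but 4 with group proportions held equal and 5 in thinned cells. Shares of cells with a class II UMI were 13.1% and 37.7% without thinning and 5.44% and 19.8% at 10000 UMIs. For all 7 genes the stalk-like log2 ratio was 1.47 with all variable genes kept, and the proliferative ratio 1.68 without cells holding a leucocyte marker UMI. Under that last exclusion the arterial ratio of the 7 genes turned to −0.14 and that of H2-Eb1 to −0.94, from 65 cGAMP-treated cells. It gave no ratio for H2-Aa in arterial ECs or for H2-Aa and H2-Eb1 in tip-like ECs, which had 0 UMIs in the cGAMP-treated cells left. The tip-like ratio of the 7 genes, −0.17, was 0.29 at resolution 0.3, 0.37 with all variable genes and 0.79 without the highest PBS-treated cell, and H2-Aa and H2-Eb1 then turned to 1.07 and 0.48. In these cases the cause was not tested. At 20 CPM 103 genes were at least 2-fold higher and 78 lower, and 0 of the pathway genes without class I were higher, at 1 CPM 307 and 321, against 173, 162 and 2 at 5 CPM, since the limit changes the number of genes counted. The removal of the PBS-treated cell and of cells with Ptprc or Lyz2, and the limit of 1 CPM, were chosen after seeing the data. No paired analysis was possible because each treatment has 1 library and no test was made. Replicates could not be left out for the same reason. At these depths Ciita, with 23 and 20 UMIs, was too rare for a 2-fold higher level to be told from no difference.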
